A study of Mus musculus with 8 samples.

Results

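The contacts of an inverted interval inside Linx were compared between a pair of mutant alleles of the mouse X-inactivation center (Xic). Linx-51kb-INV carries an inversion of about 51 kb within Linx. Chic1-4kbD carries a deletion of about 4 kb within Chic1 and keeps Linx in its reference orientation. Both alleles were studied in undifferentiated (day 0) male E14 mouse embryonic stem cells (mESCs) of the 129/Ola strain, which have a single X chromosome, by chromosome conformation capture carbon copy (5C). There were 2 libraries per allele, each from a separate clone, called clone 1 and clone 2 of the allele in the order of the records. These 4 libraries, of 8 in the series, share a title prefix whose meaning the labels do not give. Each clone compared is 1 library. The tests took the spread from all 8 libraries of the series, among them 2 from a single clone of another allele. The p-values therefore do not measure the spread between clones of the compared alleles alone. A difference between the alleles can come from either rearrangement, and unmodified cells were not analysed here. The members described are the 10 HindIII fragments, of 1039 on the X chromosome map, that lie at chrX:100453762-100496034 (mm9). All 10 lie inside Linx, annotated as 4930519F16Rik (chrX:100378310-100507121, minus strand), and overlap 0 of its 13 annotated exons. The annotation places 1 further gene in the interval, the pseudogene Gm14848 (chrX:100494354-100494770). The start of Linx lies 11.1 kb to the right of the interval.

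The Xic holds the noncoding gene Xist, whose RNA coats and silences the X chromosome from which it is made, and Tsix, its antisense repressor. The 2 genes lie at the border of neighboring topologically associating domains (TADs), which are stretches of chromatin with frequent internal contacts. The Tsix-TAD holds Linx, a noncoding gene with clustered binding sites for the protein CTCF, together with Nap1l2, Cdx4, Chic1, Tsx and Tsix. The Xist-TAD holds Xist, Jpx, Ftx, Zcchc13 and Rlim. CTCF stops the extrusion of chromatin loops by cohesin, and its motif has a direction: loops form mostly between sites whose motifs point toward each other. An inversion turns the motifs of its interval around without removing them, whereas the deletion in Chic1 takes away CTCF sites at another anchor.

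The interval was searched on both strands for the CTCF core CCANNAGNNGGC, since the direction of these letters is what the inversion turns. It held 7 matches in the mm9 reference, 5 on the forward and 2 on the reverse strand. Of 108 windows of the same length along the map, 92.6% held at least 1 match and 13% held 7 or more, with a median of 2. A match of these letters does not show that CTCF is bound. The sequences below run 5′ to 3′ on the strand of the match, with the match in capitals and the HindIII fragment that holds it in the name.
REV_520 chrX:100455389-100455408 forward: gtgaCCACTAGATGGCggta
FOR_521 chrX:100469876-100469895 forward: caggCCACCAGGTGGCagtt
FOR_521 chrX:100474389-100474408 forward: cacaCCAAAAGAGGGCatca
REV_525 chrX:100478953-100478972 forward: cagaCCAGAAGAGGGCaccc
FOR_526 chrX:100482012-100482031 reverse: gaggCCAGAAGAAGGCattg
REV_527 chrX:100483662-100483681 forward: aaccCCAAGAGAGGGCccca
FOR_528 chrX:100485170-100485189 reverse: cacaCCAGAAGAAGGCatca
The forward matches point toward Chic1, Tsix and Xist in the reference, and toward Nap1l2 on the inverted allele. REV_518 and FOR_519, the 2 leftmost fragments, held no match.

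A 5C count is the number of reads that join a forward primer on one HindIII fragment to a reverse primer on another, so that 2 fragments of the same primer type are never paired. The interval has 5 fragments with forward (FOR) and 5 with reverse (REV) primers. Total counts of the 4 libraries ranged from 8184318 to 13777885. The labels were checked in the counts of single fragments. In Chic1-4kbD, the Chic1 fragment FOR_546 (chrX:100565598-100567847) kept 13.1% and 14.7% of its mean share in the inversion libraries, and it was left out of every sum. At the right end of the Linx interval, the contact of FOR_519 with REV_531, a fragment beyond that end that holds the Linx start, had 7020 and 5313 counts in Linx-51kb-INV but 413 and 91 in Chic1-4kbD. These fragments are 51230 bp apart in the reference. Scaled to counts per 1000000 X-chromosomal counts (CPM), the contact was 512 ± 161 (SD, n = 2) in Linx-51kb-INV and 25.8 ± 20.4 (SD, n = 2) in Chic1-4kbD, a ratio of 19.8. Conversely, FOR_528, the rightmost fragment of the interval, joined REV_531 with 64 and 2 counts in Linx-51kb-INV and with 693 and 230 in Chic1-4kbD. The inverted order at the right end was therefore visible in both clones labelled with the inversion.

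At the left end the counts placed 1 of the 10 fragments outside the turned part. REV_518 (chrX:100453762-100454926) kept its contact with FOR_517, its left neighbor, at 251 and 219 CPM in Linx-51kb-INV and 321 and 177 CPM in Chic1-4kbD. Its contact with FOR_519, its right neighbor in the reference, was 45.5 and 34.3 CPM in Linx-51kb-INV and 582 and 346 CPM in Chic1-4kbD, 11.6 times as many in the deletion. It gained contacts with FOR_528, at 178 and 145 CPM against 13.4 and 39.2 CPM. By contrast, FOR_517 joined REV_520, a fragment inside the interval, at 11.6 and 18.9 CPM in the inversion and at 82.5 and 54.7 CPM in the deletion. REV_518 thus stayed beside its left neighbor, whereas the fragments from FOR_519 on were turned. The 10 fragments were mirrored together in the analysis below, and the values that REV_518 moves most are also given with only the other 9 mirrored.

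**Figure D1:**
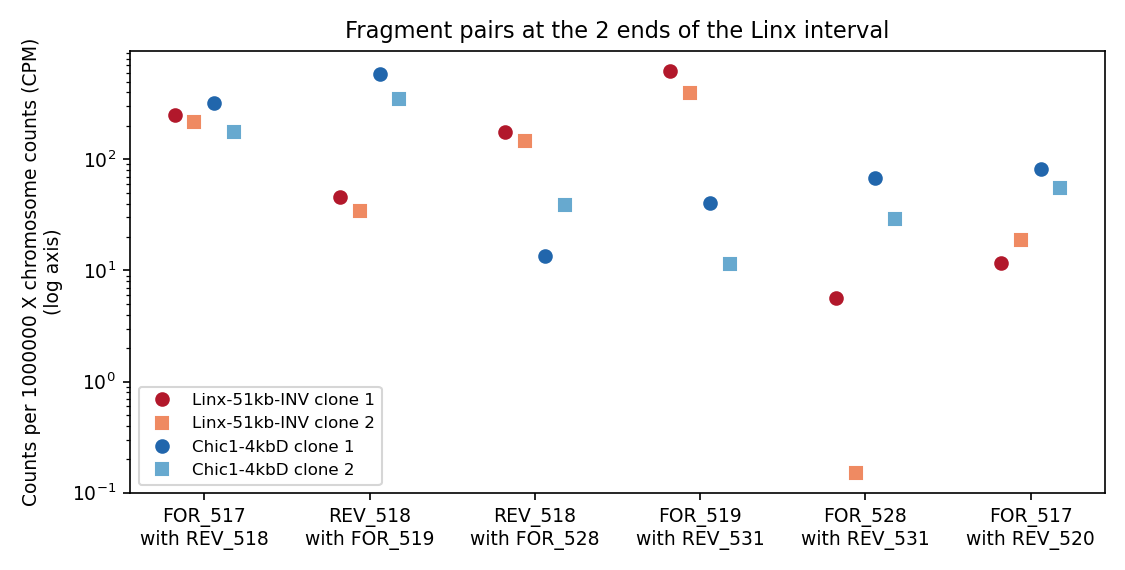
CPM (log axis) of 6 fragment pairs at the ends of the Linx interval, 1 point per library. The pair FOR_519 with REV_531 is high in both Linx-51kb-INV libraries (626 and 398) and low in both Chic1-4kbD libraries (40.3 and 11.4), while the pair FOR_517 with REV_518 overlaps between the alleles.

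The contacts of the interval moved from the right to the left in Linx-51kb-INV relative to Chic1-4kbD. For this comparison the map was divided into tiles of 50 kb, and the tile chrX:100450001-100500000, which holds the 10 fragments and no other, is called the interval tile. The count of each pair of tiles was set against an expected count, taken from how counts fall with distance in the same library, with distances measured along its own allele, as log2 observed over expected, and compared between alleles by edgeR's quasi-likelihood test with Benjamini-Hochberg adjustment over all 1173 tile pairs. Of all tile pairs, 8 (0.682%) were higher and 13 (1.11%) lower in Linx-51kb-INV, and 2 and 5 without deletion clone 2, the lowest numbers with any clone left out. Of the 10 pairs of the interval tile with a tile to the left, 3 were higher and 0 lower. Of its 14 pairs with a tile to the right, 0 were higher and 6 lower. The median log2 fold change was 0.71 over the left pairs and -0.67 over the right pairs, against -0.04 over all tile pairs. All 10 left pairs had a positive value, as did 3 of the right pairs.

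The interval tile had fewer contacts in Linx-51kb-INV than in Chic1-4kbD with the Tsix-TAD genes that lie between Linx and Xist. With the tile that holds the start of Chic1, which encodes a cysteine-rich hydrophobic domain protein, the interval tile was at 0.76 and 0.51 (log2 observed over expected) in Linx-51kb-INV and at 1.75 and 1.73 in Chic1-4kbD. The log2 fold change was -1.10 (standard error, SE, 0.11, adjusted p = 3.29e-09). With the next tile, which holds the starts of Tsx and Tsix, the interval tile was at 0.61 and 0.59 in Linx-51kb-INV and at 1.87 and 1.71 in Chic1-4kbD, a log2 fold change of -1.19 (SE 0.10, adjusted p = 4.4e-10). In the deletion libraries these were the highest values of the whole profile, and the alleles did not overlap in either tile. The deletion itself lies in the Chic1 tile. For neither tile can its part in the value be told apart from the part of the inversion.

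The fall went on across the border into the Xist-TAD. With the tile of Xist and Jpx, a noncoding activator of Xist, the interval tile was at -0.76 and -0.47 in Linx-51kb-INV and at 0.72 and 0.66 in Chic1-4kbD. This was the change of greatest size among the interval's tile pairs that passed the test, with a log2 fold change of -1.30 (SE 0.14, adjusted p = 2.89e-08). The contacts lay above the distance expectation in both deletion libraries and below it in both inversion libraries. With the tile of Ftx, a noncoding gene upstream of Xist, and Zcchc13, the values were -1.68 and -1.37 against -0.10 and -0.76, and the log2 fold change was -1.13 (SE 0.23, adjusted p = 0.00254). The 2 tiles between them, which hold no listed gene start, changed by -0.96 (adjusted p = 0.00431) and -0.80 (adjusted p = 0.0389). Leaving out 1 library ended the calls of these 3 tiles beyond Xist: for the Ftx tile, the value was -0.98 (adjusted p = 0.0818) without inversion clone 1 and -0.76 (adjusted p = 0.324) without deletion clone 1. For the tile 250 kb away it was -0.62 (adjusted p = 0.199) without inversion clone 1 and -0.88 (adjusted p = 0.139) without deletion clone 2. For the tile 300 kb away it was -0.62 (adjusted p = 0.357) without inversion clone 2, -0.69 (adjusted p = 0.387) without deletion clone 1 and -0.91 (adjusted p = 0.139) without deletion clone 2, and the call was also lost with library size (-0.89, adjusted p = 0.0538).

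Beyond Ftx no pair of the interval tile passed the test. The tile of Rlim, which encodes a ubiquitin ligase that activates Xist, gave -0.84 (SE 0.29, adjusted p = 0.194). In the Rlim tile the clones of the inversion differed from each other, at -0.46 and -1.68. The adjacent tile on the right also differed from the rest of that side. It holds the starts of Linx and of Cdx4, a homeobox gene, and the interval tile was at 1.12 and 0.79 in Linx-51kb-INV and at 1.03 and 0.78 in Chic1-4kbD. The ranges of the alleles overlapped, and the log2 fold change was 0.05 (SE 0.12, adjusted p = 0.944).

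To the left, the interval tile had more contacts in Linx-51kb-INV with the adjacent part of Linx, with Nap1l2 and with a region beyond. With the adjacent tile it was at 0.87 and 0.71 in Linx-51kb-INV and at 0.34 and -0.04 in Chic1-4kbD, a log2 fold change of 0.63 (SE 0.11, adjusted p = 0.000433). That value was 0.40 (adjusted p = 0.0469) with REV_518 not mirrored, 0.23 (adjusted p = 0.835) with library size as the reference, and 0.45 (adjusted p = 0.141) without deletion clone 2. With the tile of Nap1l2, a gene for a nucleosome assembly protein, the levels were 0.03 and 0.06 against -0.84 and -0.67, and the log2 fold change was 0.80 (SE 0.14, adjusted p = 0.000417). The tile 300 kb to the left, chrX:100150001-100200000, was at 0.96 in both inversion libraries and at -0.04 and 0.02 in the deletion libraries, a change of 0.98 (SE 0.18, adjusted p = 0.000894). The last of these was the largest of the 3 left-hand changes that passed, and no library of one allele reached the range of the other in any of the 3 tiles.

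**Figure D2:**
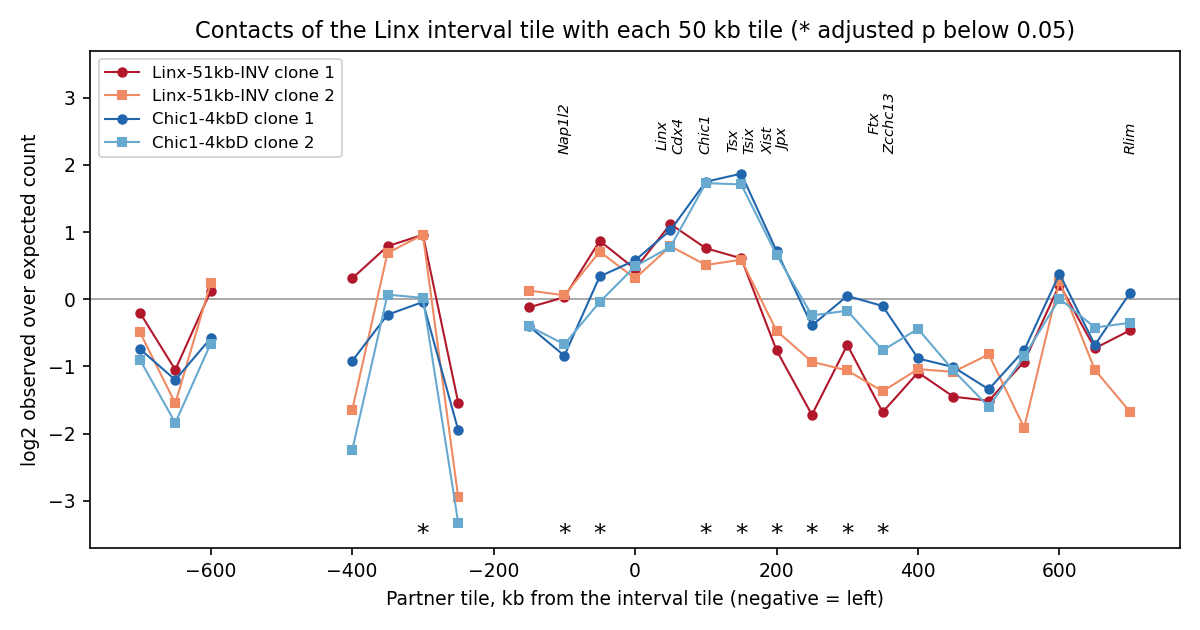
Log2 observed over expected count of the interval tile with each 50 kb tile up to 700 kb away, against the distance of that tile in kb, 1 line per library, with the genes that start in a tile above it. The Linx-51kb-INV lines lie mostly above the Chic1-4kbD lines left of the interval. They lie below them from the Chic1 tile (100 kb) to the Ftx tile (350 kb). Asterisks mark the 9 pairs past the test.

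Summed by side, all 4 sums outside the interval tile passed the test, and the sum inside it did not. The near sides take in the 4 tiles up to 200 kb away and the far sides those from there to 700 kb. Of 432 such sums along the map, 6 (1.39%) were higher and 8 (1.85%) lower in Linx-51kb-INV. On the right near side the interval tile was at 0.67 and 0.49 in Linx-51kb-INV and at 1.47 and 1.34 in Chic1-4kbD, a log2 fold change of -0.82 (SE 0.075, adjusted p = 5.97e-06). On the left near side it was at 0.58 and 0.48 against 0.03 and -0.23, a change of 0.63 (SE 0.091, adjusted p = 0.000723). The far sides followed the near ones in direction, with 0.73 on the left (SE 0.14, adjusted p = 0.00462) and -0.54 on the right (SE 0.090, adjusted p = 0.00179). Inside the tile the change was -0.15 (SE 0.075, adjusted p = 0.451). With REV_518 not mirrored, the left near value was 0.48 (adjusted p = 0.00504) and the right near value -0.78 (adjusted p = 1.18e-05), and the far values were 0.72 (adjusted p = 0.00523) and -0.53 (adjusted p = 0.00239). With library size, which leaves out the changed distances, the right near fall remained at -0.91 (adjusted p = 0.00231), while the left near value of 0.31 (adjusted p = 0.566) and both far values missed the threshold.

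The balance of left near over right near contacts does not depend on library size and tests the difference between the sides itself. It is the log2 ratio of the 2 counts, relative to the same ratio of the expected counts, and was tested with limma over 87 tiles. For the interval tile it was -0.09 and -0.01 in Linx-51kb-INV and -1.44 and -1.57 in Chic1-4kbD. In other words, contacts were near even in the inversion and leaned to the right in the deletion. The difference was 1.45 (SE 0.076, adjusted p = 2.22e-09), and 1.26 (adjusted p = 1.67e-08) with REV_518 not mirrored. The interval tile was the only 1 of 87 (1.15%) to be called higher, and the other tiles lay between -0.70 and 0.90. Those called lower, 2 of 87 (2.3%), were the Chic1 tile, at -0.39 (SE 0.064, adjusted p = 0.00133), and the Tsx and Tsix tile, at -0.26 (SE 0.056, adjusted p = 0.0116). The call of the latter was lost with library size (-0.26, adjusted p = 0.0921), without the trend in limma (-0.26, adjusted p = 0.145) and without deletion clone 1 (-0.21, adjusted p = 0.222). The interval tile is among the left near tiles of both. The Chic1-14kbD allele, a deletion of about 14 kb within Chic1 with 2 libraries of 1 clone, had balances of -1.54 and -1.69 at the interval tile, near those of Chic1-4kbD. At the Chic1 tile it was at 0.74 and 0.80, near Linx-51kb-INV (0.76 and 0.70) and below Chic1-4kbD (1.12 and 1.11). At the Tsx and Tsix tile it was at 1.68 and 1.71, above Linx-51kb-INV (1.25 and 1.21) and Chic1-4kbD (1.54 and 1.44). The second Chic1-14kbD library had a total of only 1614282 counts.

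**Figure D3:**
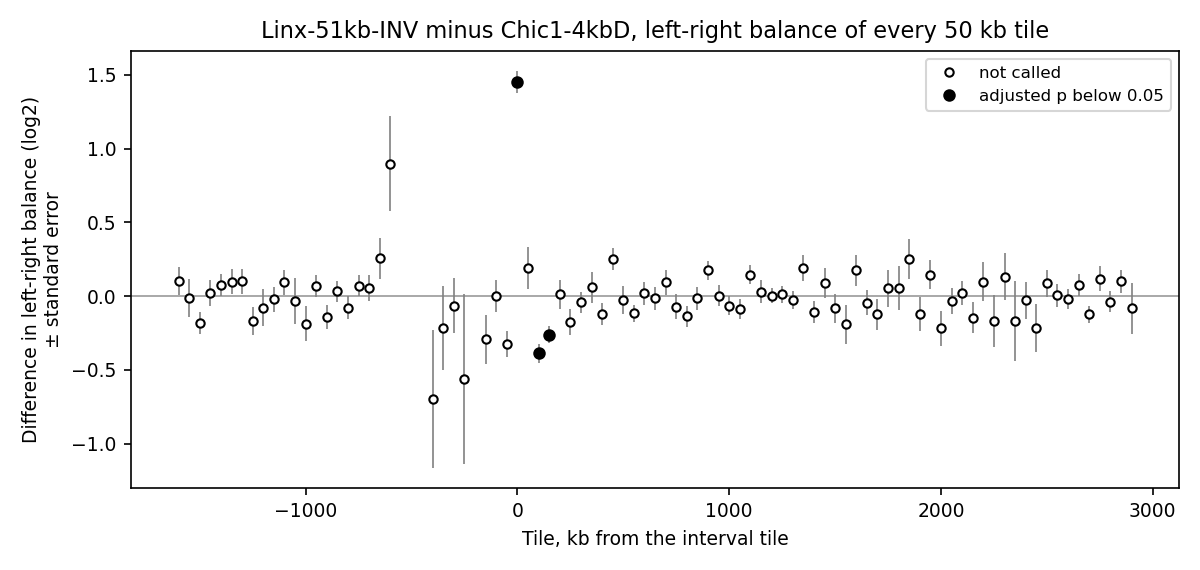
Difference in left-right balance between the alleles, Linx-51kb-INV minus Chic1-4kbD (log2, ± standard error), for every tested 50 kb tile against its distance from the interval tile in kb. The interval tile stands at 1.45, above all other tiles, and the called tiles below 0 are those of Chic1 (100 kb) and of Tsx and Tsix (150 kb).

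Fragment by fragment, the lower right near level in Linx-51kb-INV was shared by nearly the whole interval. Of the 3928 sums of a fragment with a side, 4 (0.102%) were higher and 14 (0.356%) lower in Linx-51kb-INV. On the right near side 8 of the 10 interval fragments were lower and 0 higher, with a median log2 fold change of -1.02, against a median of 0.00 over 1009 fragments. REV_520 (chrX:100455324-100468776), which holds the leftmost motif match, was at 1.32 and 1.01 in Linx-51kb-INV and at 2.33 and 2.15 in Chic1-4kbD, the highest right near level of any interval fragment in either deletion library. It changed by -1.07 (SE 0.18, adjusted p = 0.00316). REV_525 (chrX:100477397-100479327), with 1 forward match, was at 0.72 and 0.61 against 1.94 and 1.72 and changed by -1.17 (SE 0.18, adjusted p = 0.00174).

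REV_522, FOR_524, FOR_526, REV_527 and FOR_528 were lower by between -1.11 and -0.89 on the log2 scale on the same side. Of these, REV_522 and FOR_524 held no motif match. The calls of REV_522, FOR_526, REV_527 and FOR_528 were lost with any 1 library left out. That of FOR_528 was also lost with the highest primer pair left out (-0.85, adjusted p = 0.0531). With only the 4 libraries compared, FOR_528 was at -0.89 (adjusted p = 0.0585). FOR_521, which held 2 forward matches, gave -0.73 (SE 0.24, adjusted p = 0.37) on counts of 1535 and 1350 against 2349 and 1451, the lowest of the right near side. REV_518 had the change of greatest size, from 1.99 and 2.04 in Chic1-4kbD to -0.16 and -0.08 in Linx-51kb-INV, a log2 fold change of -2.14 (SE 0.17, adjusted p = 1.65e-07). With REV_518 not mirrored its change was -1.54 (adjusted p = 4.03e-05), so the fragment that kept its place beside its left neighbor also had fewer contacts on the right. The calls over all 4 sides of the 10 fragments were 13 (11 with REV_518 not mirrored), and fewer whenever 1 library was left out. With 1 library left out, the change of REV_518 as mirrored ran from -2.18 to -2.10 on the right near side. On the left near side it ran from 1.29 to 1.52. That left near value depended on the mirroring of REV_518 and was -0.03 (adjusted p = 0.989) without it.

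FOR_519 (chrX:100454927-100455323) was the exception on the right near side. It was at 1.85 and 1.50 in Linx-51kb-INV and at 1.49 and 1.26 in Chic1-4kbD, a log2 fold change of 0.30 (SE 0.20, adjusted p = 0.922). Most of its right near counts in the inversion came from the adjacent tile, where FOR_519 had 777 and 507 CPM in the inversion and 85.3 and 35.1 CPM in the deletion. That tile holds REV_531, now beside FOR_519. Farther on, its contacts were at 184 and 159 CPM against 190 and 195 CPM in the Chic1 tile, and at 48.3 and 54.4 CPM against 96.6 and 104 CPM in the tile of Xist and Jpx.

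The genes on the right took part unevenly across the 10 fragments. These differences of mean log2 observed over expected are given without a test. In the Tsx and Tsix tile they ran from -2.09 (REV_518) to -0.39 (FOR_519), with a median of -1.14. In the Chic1 tile they ran from -1.84 to -0.44, with a median of -1.19. In the tile of Xist and Jpx they ran from -2.36 to -0.46, with a median of -0.98. With REV_518 not mirrored, its own differences were -1.38 in the Chic1 tile, -1.86 in the Tsx and Tsix tile and -2.11 in the tile of Xist and Jpx. The values of the last tile were lowest in REV_518, REV_522 (-1.95), REV_520 (-1.85) and REV_527 (-1.56). In the adjacent tile of Linx and Cdx4, FOR_519 was at 2.13 and the other 9 fragments ran from -1.90 (REV_518, or -0.52 when not mirrored) to -0.21. The level of the interval tile as a whole was close to equal between the alleles there. It thus joined a higher value in FOR_519 to lower ones in the other 9. In REV_520 (-0.24) and FOR_521 (-0.21) the libraries of the alleles overlapped. The CPM of REV_520 was higher in the inversion, at 215 and 146 against 138 and 121.

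On the left near side all 10 fragments had positive values, with a median of 0.77 against -0.03 over 1006 fragments, and 3 passed the test. FOR_528 (chrX:100483947-100496034), the fragment brought closest to the left end, was at 0.37 and 0.30 in Linx-51kb-INV and at -0.84 and -0.97 in Chic1-4kbD, a log2 fold change of 1.24 (SE 0.24, adjusted p = 0.0161). Its counts were 3736 and 4004 in the inversion and 944 and 699 in the deletion. FOR_526 (chrX:100479328-100482454) was at 0.87 and 0.70 against -0.05 and -0.14 and changed by 0.89 (SE 0.19, adjusted p = 0.0289). REV_518 was at 1.41 (adjusted p = 0.000102) as mirrored, but at -0.03 (adjusted p = 0.989) when it kept its reference position, where its counts of 6758 and 6719 in the inversion lay beside 6537 and 4460 in the deletion. Each of the other 9 kept its sign with that change, but with library size FOR_519 and REV_520 were at -0.52 and -0.40. The calls of FOR_526 and FOR_528 were lost with any 1 library left out, with adjusted p up to 0.663 and 0.442.

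On the left far side all 10 fragments were positive, from 0.42 to 1.42, and 0 passed the test. REV_527, at 1.42 (SE 0.47, adjusted p = 0.372), and FOR_528, at 1.39 (SE 0.48, adjusted p = 0.437), had the highest values. On the right far side the 4 leftmost fragments ran from -1.16 to -0.91, and the other 6 from -0.57 to 0.07. REV_520 passed, at -0.92 (SE 0.20, adjusted p = 0.0302). REV_518 did so as mirrored, at -1.16 (SE 0.25, adjusted p = 0.0352), and missed it at -1.09 (adjusted p = 0.0802) when not mirrored. The call of REV_518 was also lost without inversion clone 2 (-0.75, adjusted p = 0.499), deletion clone 1 (-1.15, adjusted p = 0.241) or deletion clone 2 (-1.17, adjusted p = 0.385). Leaving out any 1 library ended the call of REV_520, with adjusted p from 0.241 to 0.442, and the difference between the 4 and the 6 fragments was not tested.

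**Figure D4:**
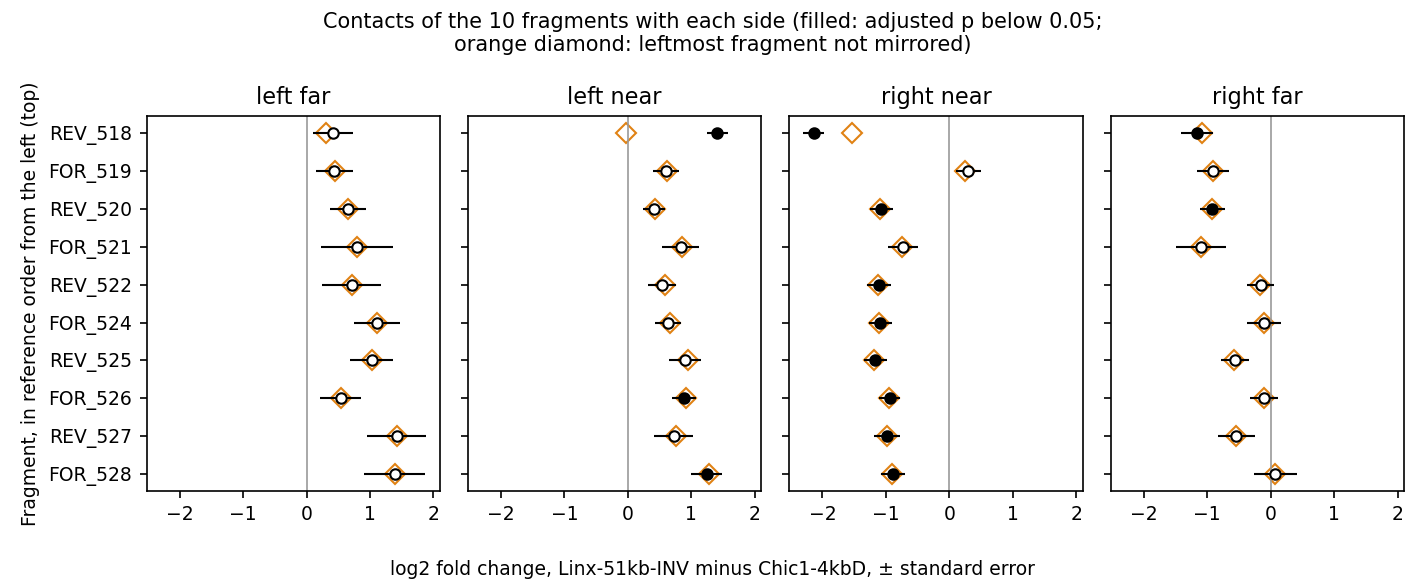
Log2 fold change of Linx-51kb-INV over Chic1-4kbD (± standard error) for each of the 10 interval fragments with each side, in reference order from the left. Values are positive on both left sides (with library size, REV_518, FOR_519 and REV_520 turn negative on the left near side) and, but for FOR_519, negative on the right near side; the diamonds, from the analysis with REV_518 not mirrored, depart from the circles mainly at REV_518.

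The balance of single fragments was higher in Linx-51kb-INV for 9 of the 10. Over the 1002 fragments tested, 10 (0.998%) were higher and 4 (0.399%) lower, so that 1 fragment of the higher ones lay outside the interval. The 9 differences ran from 1.49 in REV_520 (SE 0.19, adjusted p = 0.000442) to 3.54 in REV_518 (SE 0.17, adjusted p = 2.92e-08), which was 1.51 (adjusted p = 0.000156) when not mirrored. After REV_518, FOR_528 had the largest difference, 2.13 (SE 0.28, adjusted p = 0.000713), from -1.28 and -1.12 in Chic1-4kbD to 0.88 and 0.98 in Linx-51kb-INV. REV_525 followed with 2.08 (SE 0.24, adjusted p = 0.000234). FOR_519 gave 0.35 (SE 0.21, adjusted p = 0.724), and 1.29 (adjusted p = 0.000708) when the primer pair with the highest scaled count on each side was left out. Its value reversed to -1.33 (adjusted p = 0.006) with library size, which does not account for its move from one end of the interval to the other. The same setting took REV_520 to 0.49 (adjusted p = 0.511) and FOR_521 to 1.40 (adjusted p = 0.0504). FOR_521 also missed the threshold without inversion clone 2 (1.31, adjusted p = 0.158), deletion clone 1 (1.59, adjusted p = 0.163) or deletion clone 2 (1.54, adjusted p = 0.23), and REV_527 without deletion clone 2 (1.68, adjusted p = 0.0516).

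Neither flanking fragment passed the test of balance. FOR_517, to the left, had a balance difference of -0.05 (SE 0.23, adjusted p = 0.988), and 0.41 (adjusted p = 0.671) with REV_518 not mirrored. Its right near change was 0.02 (adjusted p = 0.992), and -0.45 (adjusted p = 0.546) with REV_518 not mirrored. REV_531 (chrX:100505553-100507158), to the right, had a balance difference of 0.94 (SE 0.23, adjusted p = 0.0876). Its left near level was 0.31 and -0.16 in Chic1-4kbD and 1.66 and 1.21 in Linx-51kb-INV. That log2 fold change was 1.35 (SE 0.23, adjusted p = 0.0036). REV_531 holds the start of Linx, and its left near side includes the whole interval. Most of that side's counts in the inversion came from its pair with FOR_519, with 7020 of 10207 and 5313 of 8304. In the deletion this pair had 413 of 3596 and 91 of 2087.

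Tile pairs that do not include the interval tile seldom passed, with 5 higher (0.436%) and 7 lower (0.61%) of 1148. All 7 lower pairs joined a tile on the left of the interval to a tile on the right, a class of 67 pairs of which 10.4% were lower. The left tile chrX:100400001-100450000, which holds a part of Linx that was not inverted, took part in 5 of them. With the tile 250 kb right of the interval it was at -0.65 and -0.86 in Linx-51kb-INV and at 0.15 and 0.14 in Chic1-4kbD, a log2 fold change of -0.89 (SE 0.16, adjusted p = 0.000894). With the tile of Xist and Jpx it changed by -0.67 (SE 0.14, adjusted p = 0.00249), and with that of Ftx and Zcchc13 by -0.94 (SE 0.20, adjusted p = 0.00338). The call with Xist and Jpx was lost without inversion clone 2 (-0.53, adjusted p = 0.128), deletion clone 1 (-0.66, adjusted p = 0.0525) or deletion clone 2 (-0.68, adjusted p = 0.0556), and that with Ftx and Zcchc13 without deletion clone 2 (-0.83, adjusted p = 0.141). The tile 300 kb to the left took part in the other lower pairs. With the tiles 250 and 400 kb right of the interval it changed by -0.66 (SE 0.17, adjusted p = 0.0389) and -0.76 (SE 0.20, adjusted p = 0.04). Both calls were lost with library size (-0.62, adjusted p = 0.266, and -0.73, adjusted p = 0.171). The lower pairs across the interval thus came from the adjacent left tile and the tile 300 kb to the left. Of the 67 pairs of this class, 7 were lower and 1 higher, and the median log2 fold change was -0.26.

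Of the higher pairs, 1 crossed the interval. It joined the tile 300 kb to the left, which also gained contacts with the interval, to the Chic1 tile, at 1.12 and 0.51 in Linx-51kb-INV and -0.09 and -0.58 in Chic1-4kbD. The log2 fold change was 1.16 (SE 0.22, adjusted p = 0.00107), and it was lost without inversion clone 1 (0.83, adjusted p = 0.122) or deletion clone 2 (0.94, adjusted p = 0.139). The other 4 lay wholly to the right of the interval. Those with the smallest p, chrX:101800001-101850000 with chrX:102350001-102400000 at 0.61 (SE 0.11, adjusted p = 0.000894) and chrX:102100001-102150000 with chrX:102600001-102650000 at 0.79 (SE 0.18, adjusted p = 0.0114), were at 0.01 (adjusted p = 0.997) and 0.08 (adjusted p = 0.947) when their primer pair with the highest scaled count was left out, so each rested on 1 primer pair. They were also lost without deletion clone 2, at 0.50 and 0.80 (adjusted p = 0.141 for both), the former without inversion clone 1 (0.42, adjusted p = 0.146), and the latter without inversion clone 2 (0.33, adjusted p = 0.741) or deletion clone 1 (0.78, adjusted p = 0.17).

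**Figure D5:**
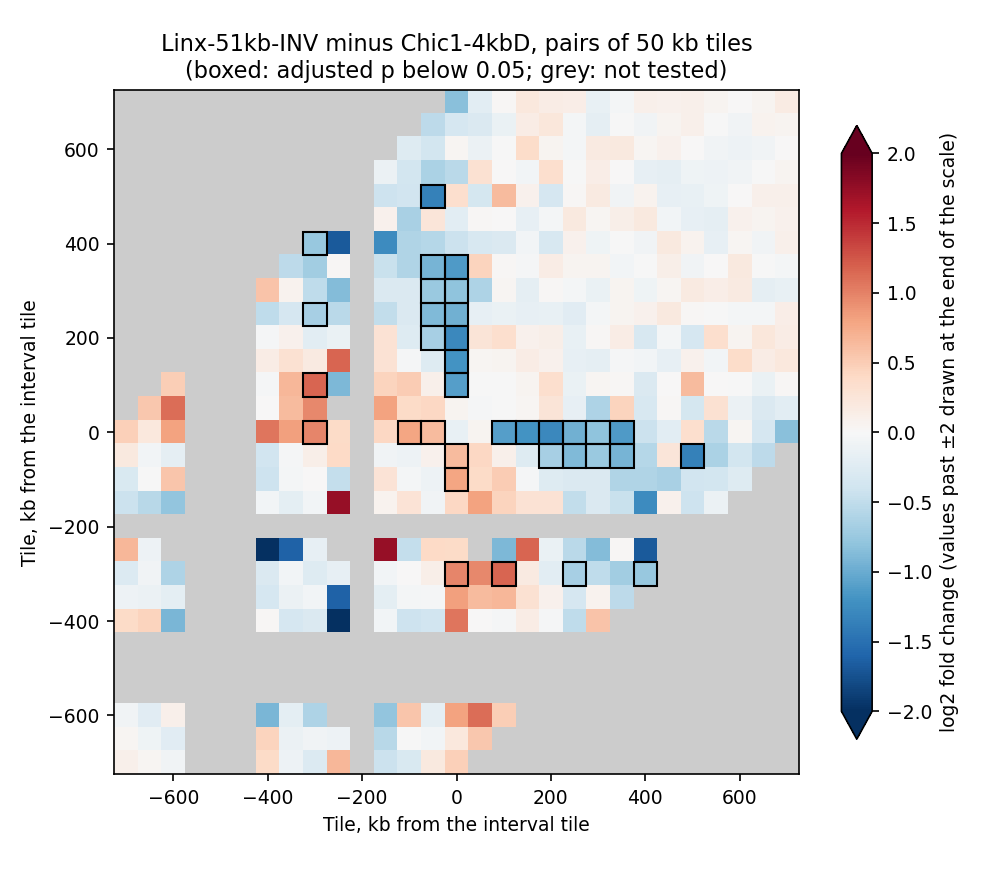
Log2 fold change of Linx-51kb-INV over Chic1-4kbD for pairs of 50 kb tiles within 700 kb of the interval tile, with both axes in kb from that tile; boxes mark pairs past the test and grey pairs that were not tested. The row and column of the interval (0 kb) are red on the left and blue from 100 to 350 kb on the right. The other lower pairs belong mostly to the adjacent left tile, and the rest to the tile 300 kb to the left.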

How the data were processed

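Per the labels and the paper's methods, the authors trimmed adapters from single-end reads and used Bowtie2 (version not given in the sources used here) to align them to every possible pair of forward and reverse primers. The deposited files hold raw counts per primer pair, with primer positions in mm9. Reads carry no molecular identifiers, so precision covers counting error and the spread of libraries, not amplification. X-chromosomal primers were kept where their summed count lay within 0.1 to 10 times that type's median (501 of 511 forward and 512 of 528 reverse). Chic1 fragments lost in Chic1-14kbD were left out in all libraries. Expected counts came from mean counts in 40 distance bins per library, with the fragments of the interval mirrored in Linx-51kb-INV and positions right of a deletion shifted. Sums with mean counts from 50 up went into edgeR 4.0.16 (glmQLFit, glmQLFTest) in R 4.3.3, with log expected counts as offset and all 8 libraries in the fit. Balances (0.5 added to each count) were tested with limma 3.58.1. The threshold was an adjusted p of 0.05 (Benjamini-Hochberg over all features of a family). Standard errors were derived from the fold change and its F statistic. Genes were placed with GENCODE vM1, in which Jpx is named Enox and Ftx B230206F22Rik.

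On simulated counts with a log2 change of 1, edgeR recovered 86.5% of 200 changed tile pairs with 11 false calls, and 61% of 200 changed fragment and side sums with 9 false calls. Limma recovered 100% of 30 changed tile balances and 16.7% of 84 changed fragment balances.

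The interval, tiles, sides and gene list were chosen with earlier results of these data known. The interval was read from a drawing of the locus in the paper. The text names the 10 fragments with their sides and balances, the interval tile with each tile, and the 3 other tile pairs of smallest p in each direction. REV_531, FOR_517, further lower tile pairs, single primer pairs and single fragments by tile were added after their values were seen. The alternatives were TMM or plain library size, reference coordinates, a wider mirror, other primer and count filters, the highest primer pair left out, 4 libraries only, DESeq2 1.42.0, and each library left out. The separate treatment of REV_518 was chosen after seeing the data. 1 gene of the list is not reported here.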

Additional observations from a re-analysis of the deposited data

How the results depend on the processing

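The fall on the right near side of the interval (-1.01 to -0.68) and its balance (1.20 to 1.81) passed the test under all 17 alternatives run. Tile pairs called higher were 8 in the text, 5 with TMM factors, library size or the highest primer pair left out, and 18 with only the 4 libraries compared; those called lower were 13, and 20 with DESeq2. With 1 library left out they ranged from 2 to 9 higher and from 5 to 11 lower, the lowest both without deletion clone 2, and the lower pairs were 8 without inversion clone 2 and 6 without deletion clone 1. Without deletion clone 2, 7 of the 21 calls remained.

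The left far gain was 0.85 (adjusted p = 0.0652) with TMM factors, 0.72 (adjusted p = 0.21) with library size, and from 0.63 to 0.83 with 1 library left out, where it missed the threshold without inversion clone 1 or either deletion clone. The left near gain was 0.44 (adjusted p = 0.191) with TMM factors and 0.31 (adjusted p = 0.566) with library size, and 0.50 to 0.76 with 1 library left out. The right far fall was -0.42 (adjusted p = 0.0956) with TMM factors, -0.55 (adjusted p = 0.186) with library size, and -0.59 to -0.48 with 1 library left out, missing the threshold without deletion clone 1 (-0.48, adjusted p = 0.0528). Inside the interval tile the value reversed to 0.03 (adjusted p = 0.957) with the highest primer pair left out. Of the 13 calls of fragments with sides, 5 were left without inversion clone 1, 3 without inversion clone 2, 2 without deletion clone 1 and 4 without deletion clone 2.

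For single fragments, the left near value of REV_518 reversed to -0.12 with library size and to -0.03 with reference coordinates or with 9 fragments mirrored. The balance of FOR_519 reversed to -1.33 with library size, with or without TMM factors, and to -1.37 with reference coordinates. Library size and reference coordinates leave out the changed distances. The setting with 9 fragments mirrored keeps them for those 9 and leaves REV_518 at its reference position. The cause of the other changes was not tested. No paired analysis was possible because the labels number no replicates across the alleles.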
